A study of Mus musculus with 4 samples.

Results

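Cytochrome P450 enzymes (P450s) carry a haem group and use oxygen and electrons from NADPH to oxidise steroids, fatty acids, vitamins and drugs. Their RNAs were read in 4 L1210 cell lines. Members were chosen by gene symbol, as the genes of the deposited table named Cyp, a number, 1 or 2 letters and a number, such as Cyp11a1. This selected 90 genes of the 24561 with a symbol, in 16 families and 39 subfamilies, and they were read by 115 of the 55681 gene features on the array. A further 8 symbols that start with Cyp and a digit, Cyp51 among them, were outside the rule. The family was proposed for study with values of these arrays in view, among them those of Cyp11a1, so its values are given as a description and with no test.

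L1210 cells derive from a lymphocytic leukemia of the mouse, with DBA subline 212 given as the strain. In all 4 lines the GFP+ cells of an infected culture had been sorted to obtain a stable line. L1210-control was the comparison line, L1210-Fbxw11a overexpressed the full-length transcript of Fbxw11, an F-box protein that selects substrates for ubiquitin ligation, and L1210-Fbxw11c and L1210-Fbxw11d overexpressed splice variants. Fbxw11c lacks an in-frame exon, and Fbxw11d lacks that exon and the next. The labels and the study's methods name a lentivirus as the carrier, and whether a line goes back to 1 cell is not given in the sources used here. Total RNA of each line was labelled with Cy3 and hybridised to 1 Agilent mouse array, so there are no replicates, no p-value can be given, and the spread between cultures of a line is unknown. The question of the comparisons below is which P450 genes were above background and which differed between a line with an Fbxw11 variant and L1210-control.

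Slide 2 held L1210-Fbxw11d only and slide 1 the other arrays, so what is particular to Fbxw11d and what to its slide cannot be told apart. All 3 comparisons share the 1 control array. Of 13 lymphoid marker genes 8 were well above background on all 4 arrays, but Cd79b, Ebf1, Igll1, Rag1 and Cd3g were so on none. Of 7 hepatocyte markers 3 were (Apoa2, Serpina1a and Tat), and the liver's defining Alb, Ttr, Apoa1 and Fgb were well above background on no array. Of 6 macrophage markers 5 were, without Lyz2. Both features of Fbxw11 differed from L1210-control by 0.03 to 0.31 on the log2 scale in the 3 variant lines. Their first bases are 3692 and 3803 of the transcript, and whether the introduced constructs hold this part is not given in the sources used here, so they are no check of the labels.

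P450s of the endoplasmic reticulum take their electrons from the reductase Por, and those of the mitochondrion from ferredoxin (Fdx1) and its reductase (Fdxr). Steroid hormone synthesis starts in the mitochondrion, where Cyp11a1 cuts the side chain of cholesterol to give pregnenolone, and Cyp17a1 then acts as hydroxylase and lyase on the path to androgens. Families 1 to 4 hold most of the enzymes that oxidise drugs, fatty acids and eicosanoids, which are best known from the liver. In the mouse many of them lie in clusters of close relatives, whose transcripts resemble each other along much of their length.

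Because the array reads a gene through probes of 60 bases, the probe sequence decides which of these relatives is measured. The first pair of probes is shown because the results on steroid synthesis rest on them. Each was placed on the genome (mm9, per the deposited table) over more than its own 60 bases, so it crosses an exon junction and reads spliced RNA. The Cyp11a1 probe covers chr9:57874074-57874544 on the + strand and the Cyp17a1 probe chr19:46742594-46743207 on the - strand, both 5′ to 3′:
Cyp11a1: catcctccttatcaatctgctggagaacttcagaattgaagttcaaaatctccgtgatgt
Cyp17a1: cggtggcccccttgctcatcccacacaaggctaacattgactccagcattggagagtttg

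The second pair is shown because each belongs to a gene whose features disagreed, and because each matches more than 1 gene. The Cyp2a4 probe covers chr7:27098659-27099724 on the + strand and lists transcripts of Cyp2a4 and Cyp2a5. The Cyp2j13 probe covers chr4:95712305-95723288 on the - strand and lists Cyp2j12 and Cyp2j13. Capitals mark the longest run the pair shares, of 14 bases, although the genes belong to different subfamilies:
Cyp2a4: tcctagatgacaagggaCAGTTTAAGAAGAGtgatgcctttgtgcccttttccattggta
Cyp2j13: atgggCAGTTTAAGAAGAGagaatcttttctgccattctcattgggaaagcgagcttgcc

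The third pair shows how alike 2 members can be. Probes of Cyp4a31 (chr4:115243923-115243982, + strand) and Cyp4a10 (chr4:115198463-115198522, + strand) share 54 of 60 bases, and capitals mark the 6 that differ:
Cyp4a31: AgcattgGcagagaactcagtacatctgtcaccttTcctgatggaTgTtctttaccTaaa
Cyp4a10: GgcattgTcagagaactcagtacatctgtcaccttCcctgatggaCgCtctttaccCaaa

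In all, 9 of the 115 P450 features listed transcripts of several RefSeq genes and 4 listed no RefSeq accession. A probe that matches several genes gives 1 value for all of them. Cyp2c44 is named Cyp2c23 in RefSeq, and 1 of the 90 symbols is a transcribed pseudogene there.

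On 1 array or more, 58 of the 90 P450 genes gave a signal above background. A feature counted as well above background where the scanner software gave that flag to at least 0.5 of its spots, and each gene was represented by its feature with the highest mean signal. By this count 44 genes (48.9%) were well above background on all 4 arrays, against 66.1% of all 24561 genes. A further 2 genes were so on 3 arrays, 5 on 2 and 7 on 1. The remaining 32 were well above background on no array. Per array there were 44 genes in L1210-control and 52, 48 and 55 with Fbxw11a, Fbxw11c and Fbxw11d, and over all genes the share was likewise lowest on the L1210-control array (68.7%) and highest on L1210-Fbxw11d (73.7%). Scaled to L1210-control, as are all signals below, the lowest signals well above background were 18.1, 14.4, 14.9 and 10.4 on the 4 arrays in this order. The limit of the L1210-Fbxw11d array was the lowest on this scale only. Before scaling the limits were 18.1, 14.5, 16.1 and 16.0 in the same order.

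**Figure D1:**
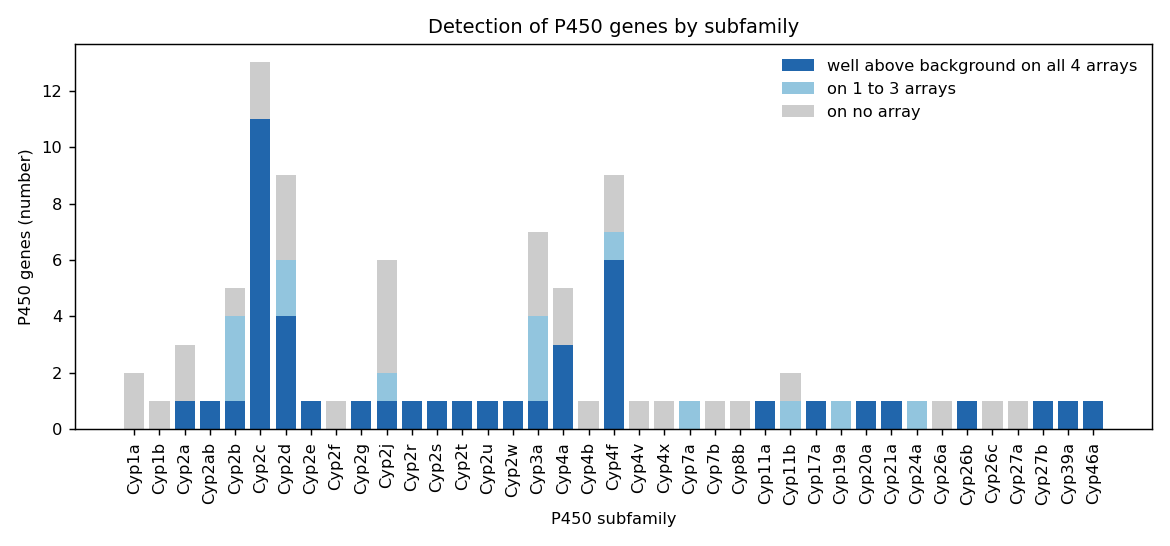
Number of P450 genes per subfamily that were well above background on all 4 arrays (dark blue), on 1 to 3 arrays (light blue) or on none (grey). The Cyp2c subfamily had 11 of 13 genes in dark blue, and 11 of the 39 subfamilies are wholly grey, with no gene well above background on any array.

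Detection differed between subfamilies, as the plot of detection by subfamily shows. Family 2, the largest, had 26 of 45 genes well above background on all 4 arrays. Its Cyp2c genes, which oxidise fatty acids and many drugs, contributed 11 of 13, and its Cyp2j genes, which make epoxides of arachidonic acid, 1 of 6. These counts rest on the feature with the highest mean signal. The second features of Cyp2c37, Cyp2c38 and Cyp2c67 were well above background on no array. The features of Cyp2c66 and Cyp2c68 also list other genes. Of the 9 Cyp4f genes, whose products hydroxylate leukotrienes and long fatty acids, 6 were well above background throughout, and of the 5 Cyp4a genes, fatty acid omega-hydroxylases, 3 were. Of the 7 Cyp3a genes, the main drug oxidising enzymes of liver and gut, Cyp3a13 alone was. No array showed Cyp1a1, Cyp1a2 or Cyp1b1, the targets of the aryl hydrocarbon receptor, well above background, although that receptor (Ahr) and its partner Arnt were well above background on all 4.

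Most P450 signals were low. Among the 44 genes well above background on all 4 arrays, the median of the mean signals was 141, against 822 for the 16247 genes of the whole array under the same condition. For 47.7% of them, 21 genes, the mean signal was 100 or less, against 22.6% of all these genes. Signals of different probes do not order RNA levels, so this says which values lie near the detection limit and not which enzyme is abundant. Near that limit the spots of 1 array scatter more. For features printed on 10 spots, the SD between spots had a median on the log2 scale, in L1210-control, of 0.24 at signals of 30 to 100 and 0.07 at 100 to 1000, and in L1210-Fbxw11d of 0.41 and 0.13. These spreads leave out culture, sorting and labelling. All but 2 P450 features were printed on a single spot.

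**Figure D2:**
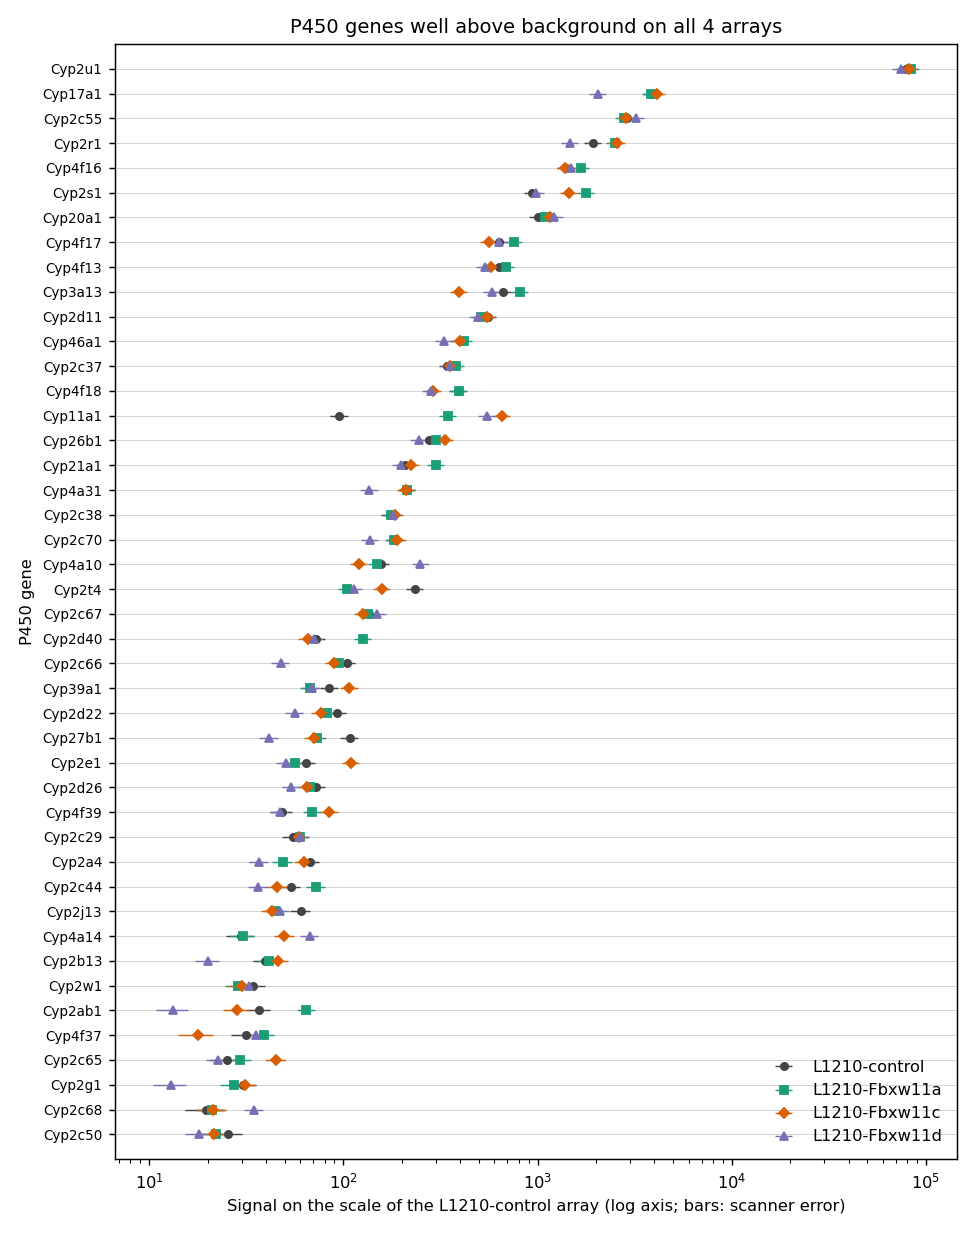
Signal of the 44 P450 genes well above background on all 4 arrays, with a log axis, 1 point per line and bars for the scanner software's error of the signal. Genes are sorted by mean signal. Most of the points of a gene lie together, the L1210-control point of Cyp11a1 (95.2) stands to the left of its other points (347 to 654), and L1210-Fbxw11d points are often the leftmost.

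Most of the features with the highest signals differed by less than 1.5-fold between lines. The 10 genes with the highest mean signal were Cyp2u1, Cyp17a1, Cyp2c55, Cyp2r1, Cyp4f16, Cyp2s1, Cyp20a1, Cyp4f17, Cyp4f13 and Cyp3a13. Cyp2u1, a fatty acid hydroxylase found in lymphoid tissue and brain, gave 78792 in L1210-control and 84018, 81856 and 74260 with Fbxw11a, Fbxw11c and Fbxw11d. That feature lists no RefSeq transcript. The feature that does gave 57.2, 67.8, 60.9 and 53.5 in the same order. On both, no line differed from L1210-control by more than 1.18-fold. Cyp2c55 ranged from 2783 to 3222, Cyp4f16 from 1393 to 1671 and Cyp20a1, a P450 with no settled substrate, from 1002 to 1223 over the 4 lines. Cyp2s1, found in epithelia and in white blood cells, was an exception among them, with 941 in L1210-control and 1767, 1449.5 and 985 with Fbxw11a, Fbxw11c and Fbxw11d, where L1210-Fbxw11a was 1.88-fold above L1210-control. These 10 genes hold 2 of the 13 with a 2-fold range over the lines, Cyp17a1 and Cyp3a13.

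With a threshold of 2-fold, few P450 genes differed from L1210-control in any line, and Cyp11a1 was the 1 gene that passed it in all 3. Of 52 P450 genes compared in L1210-Fbxw11a, 1 was higher (Cyp11a1) and 1 lower (Cyp2t4), where 2.43% of all genes compared were higher and 2.02% lower. Of 48 compared in L1210-Fbxw11c, 1 was higher (Cyp11a1) and none lower, where 1.61% of all genes were higher and 2.27% lower. In L1210-Fbxw11d 3 of 55 were higher (Cyp11a1, Cyp4a14 and Cyp2d9) and 5 lower (Cyp2ab1, Cyp27b1, Cyp2g1, Cyp2c66 and Cyp2t4), where 1.05% of all genes were higher and 4.7% lower. The P450 shares in L1210-Fbxw11d were 5.45% and 9.09%. Together these are 8 genes. The share of all genes past 2-fold in any line or in all 3 is not given here. All 3 ratios of Cyp11a1 share its 1 control value, which is from 1 spot. Genes below background on both arrays of a comparison were not compared. In bulk RNA more cells with an RNA and more of it per cell cannot be told apart.

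The counts in L1210-Fbxw11d moved with the processing. They were 4 higher and 3 lower after quantile normalization, after centring on the median and with the authors' normalized values, and 1 higher and 1 lower after normexp background correction, which shrinks ratios of dim features. Cyp11a1 and Cyp27b1 were the calls left under the last.

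**Figure D3:**
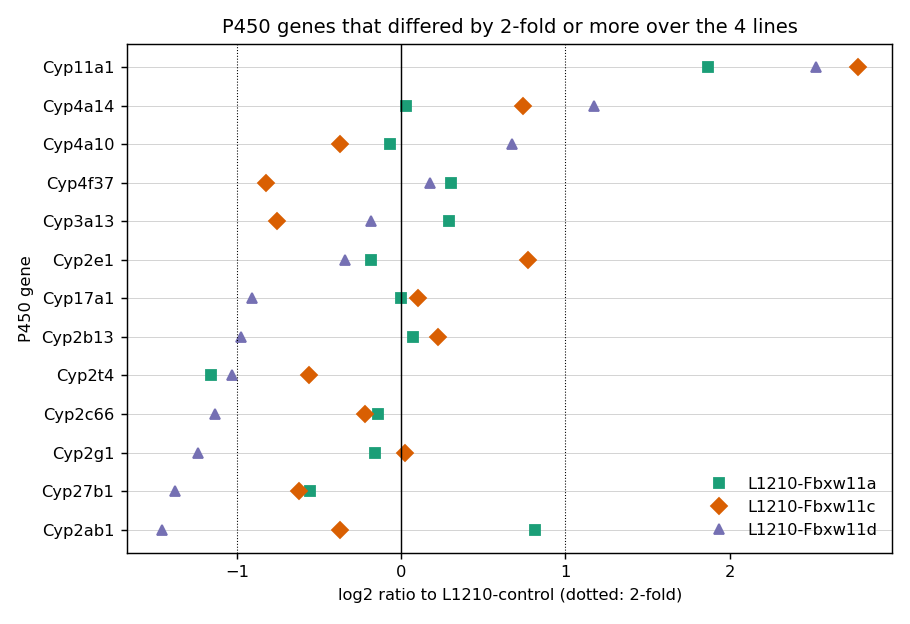
The log2 ratio to L1210-control in the 3 variant lines for the 13 P450 genes well above background on all 4 arrays with a difference of 2-fold or more between the highest and the lowest line, with dotted lines at 2-fold. Cyp11a1 lies at 1.87, 2.78 and 2.53 to the right of the upper dotted line, as does Cyp4a14 in L1210-Fbxw11d (1.18), and beyond the lower one lie Cyp2ab1, Cyp27b1, Cyp2g1 and Cyp2c66 in L1210-Fbxw11d and Cyp2t4 in L1210-Fbxw11a and L1210-Fbxw11d.

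Of the steroid hormone synthesis genes, 3 of 6 were well above background on all 4 arrays. Cyp11a1, the side chain cleavage enzyme and first step of the pathway, had a signal of 95.2 ± 10.2 (scanner error) in L1210-control and 347 ± 34.9, 654 ± 65.5 and 549 ± 55.0 with Fbxw11a, Fbxw11c and Fbxw11d. The control line was the lowest of the 4 and L1210-Fbxw11c the highest. The log2 ratios were 1.87, 2.78 and 2.53, which are 3.65-fold, 6.87-fold and 5.77-fold. Over the alternatives that keep the 2-fold threshold they ran from 1.36 to 1.91, from 2.18 to 2.85 and from 1.90 to 2.74, so Cyp11a1 stayed past 2-fold in each.

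Cyp17a1, the hydroxylase and lyase of the pathway, had signals of 3862 in L1210-control and 3856, 4139 and 2057 with Fbxw11a, Fbxw11c and Fbxw11d. L1210-Fbxw11d alone was apart, 1.88-fold below L1210-control (log2 -0.91). Cyp21a1, the hydroxylase on the way to corticosterone, gave 208, 299.8, 224 and 198, and L1210-Fbxw11a was the highest at 1.44-fold above L1210-control. Its second feature was well above background on no array. The late enzymes were near or below the limit. Cyp11b1 was well above background in L1210-Fbxw11a only (24.5) and Cyp19a1, the aromatase that makes estrogens, in L1210-Fbxw11a (23.2) and L1210-Fbxw11d (23.1). Cyp11b2, the aldosterone synthase, was well above background on no array.

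The neighbours of these enzymes went different ways. Star, which brings cholesterol to the inner mitochondrial membrane where Cyp11a1 lies, had signals of 108 in L1210-control and 102, 89.0 and 91.6 with Fbxw11a, Fbxw11c and Fbxw11d, where the first differed from L1210-control by less than the scanner error of 11.4. The nuclear receptor Nr5a1, an activator of steroidogenic genes, gave 263, 225, 235 and 170.1 in the same order, with log2 ratios of -0.23, -0.16 and -0.63. Of 10 genes around steroid and sterol synthesis 7 were well above background on all 4 arrays. Among them 1 was past 2-fold, Hsd3b6, a steroid dehydrogenase that acts on pregnenolone, with 368, 294, 953 and 619 on the 4 arrays and a log2 ratio of 1.37 in L1210-Fbxw11c. In L1210-Fbxw11d its ratio was 0.75 and in L1210-Fbxw11a -0.33. Srd5a1, a steroid reductase that acts on testosterone, was higher in all 3 variant lines, with log2 ratios of 0.54, 0.19 and 0.32. Hsd3b1, a relative of Hsd3b6, passed the background on the L1210-Fbxw11c and L1210-Fbxw11d arrays only, at least 1.57-fold and 1.38-fold above L1210-control. Cyp51, the sterol demethylase of cholesterol synthesis, gave 1114, 1193, 1391 and 1642. Of 7 markers of steroidogenic cells 4 passed on all 4 arrays, and Mc2r and Lhcgr, the receptors that define adrenal cortex and gonadal cells, on none. The summed signal of the 7 was 4467, 4500.5, 4732 and 2547 on the 4 arrays, most of it from Cyp17a1.

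All 8 electron donors were well above background on every array and none differed by 2-fold in any line. Por, the NADPH reductase of microsomal P450s, gave 15930.0 in L1210-control and 19142, 17775 and 21855 with Fbxw11a, Fbxw11c and Fbxw11d. Fdx1, the ferredoxin that passes electrons to Cyp11a1, ranged from 17020.0 in L1210-control to 18397 in L1210-Fbxw11a, and Fdxr from 4909 in L1210-control to 6736 in L1210-Fbxw11d. The median log2 ratios of the 8 genes were 0.16, 0.07 and 0.17 in the 3 variant lines.

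Of the vitamin D and retinoic acid genes 3 of 6 were well above background on all 4 arrays. Cyp27b1, which makes the active hormone from 25-hydroxyvitamin D, had signals of 108 in L1210-control and 73.6, 70.3 and 41.6 with Fbxw11a, Fbxw11c and Fbxw11d. All 3 variant lines were below L1210-control, by log2 ratios of -0.55, -0.62 and -1.38, and the last passed 2-fold. Over the alternatives that ratio ran from -1.38 to -1.10. Cyp2r1, the 25-hydroxylase one step before it, gave 1933, 2503, 2571 and 1462, so L1210-Fbxw11a and L1210-Fbxw11c were above L1210-control by 0.37 and 0.41 and L1210-Fbxw11d below it by a log2 ratio of -0.40. Its second feature gave log2 ratios of 0.41, 0.15 and -0.02. Cyp24a1, which degrades the hormone, was well above background in L1210-Fbxw11a only (23.7). The vitamin D receptor Vdr, at 388, 439, 399 and 453, differed from L1210-control by at most 0.22 on the log2 scale. Cyp26b1, which clears retinoic acid, gave 275, 300.2, 334 and 244, and Cyp26a1 and Cyp26c1 were well above background on no array.

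Of the sterol and bile acid genes 2 of 6 were well above background on all 4 arrays. Cyp39a1, a hydroxylase of 24-hydroxycholesterol, gave 84.7 in L1210-control and 67.1, 107 and 68.6 with Fbxw11a, Fbxw11c and Fbxw11d. Cyp46a1, which makes 24-hydroxycholesterol, gave 397, 419, 399 and 330.5. Neither differed from L1210-control by more than 0.34 on the log2 scale. Cyp7a1, the rate-limiting enzyme of bile acid synthesis, was well above background in L1210-Fbxw11c (15.7) and L1210-Fbxw11d (21.0) only. Cyp7b1, Cyp8b1 and Cyp27a1 were well above background on no array. Cyp27a1 was printed on 10 spots, of which at most 4 were well above background on an array.

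Of 11 regulators of P450 genes 7 passed on all 4 arrays, and 1 differed by 2-fold. This was Nr1h3, the oxysterol receptor, with 59.8 in L1210-Fbxw11a, at least 3.31-fold above the 16.9 of L1210-control, which was not well above background. It gave 14.4 with Fbxw11c, not well above background either, and 12.3 with Fbxw11d. Ahr was lower in all 3 variant lines, with 659 in L1210-control and 493, 432 and 451 with Fbxw11a, Fbxw11c and Fbxw11d, and so was Rxra, with 108, 81.5, 73.1 and 64.4. Neither reached 2-fold. Nr1i2 and Hnf4a, which drive liver P450 genes, were well above background on no array.

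Among the other genes past 2-fold, Cyp2ab1, Cyp2g1, Cyp4a14 and Cyp2d9 had signals below 100 on all 4 arrays. The Cyp11a1 signal in L1210-control was below 100 too. Cyp2t4 gave 233 in L1210-control and 104.5, 158 and 114 with Fbxw11a, Fbxw11c and Fbxw11d. All 3 variant lines were below L1210-control, and with log2 ratios of -1.16, -0.56 and -1.03 the first and the last passed the threshold. In L1210-Fbxw11d it lay just inside, and under quantile normalization it became -0.91. After normexp the ratio was -0.81 in L1210-Fbxw11a and -0.89 in L1210-Fbxw11d, so neither call was left. Cyp2ab1 gave 36.6, 64.5, 28.3 and 13.3, highest in L1210-Fbxw11a and lowest in L1210-Fbxw11d, which differ by 4.84-fold. Cyp2g1, a P450 of the olfactory epithelium, gave 30.6, 27.4, 31.002 and 12.9, and Cyp2c66 gave 104, 94.7, 89.6 and 47.6. In both, L1210-Fbxw11d was the low line and the others lay together. The Cyp2c66 feature also matches Cyp2c65. Cyp4a14 gave 29.7, 30.4, 49.6 and 67.1, with log2 ratios of 0.03, 0.74 and 1.18. Cyp2d9, which hydroxylates testosterone in male liver, gave 17.9 in L1210-control (not well above background), 21.7, 20.5 and 46.1, so L1210-Fbxw11d was at least 2.55-fold higher. Just outside the threshold lay Cyp2b13 in L1210-Fbxw11d, at a log2 ratio of -0.98.

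L1210-Fbxw11d was the line that most often stood apart. It was the lowest of the 4 lines for 24 of the 44 genes well above background on all arrays, the highest for 6, and 30 of these 44 genes were below L1210-control in it, against 18 in L1210-Fbxw11a and 23 in L1210-Fbxw11c. These are 54.5%, 13.6% and 68.2% of the 44, where of all 16247 genes 28.7% were lowest, 35.1% highest and 44.2% below L1210-control in L1210-Fbxw11d. The median log2 ratio of the 44 genes was 0.05 with Fbxw11a, -0.01 with Fbxw11c and -0.18 with Fbxw11d, where all genes had 0.00, 0.02 and 0.04. Dim genes in general read lower in L1210-Fbxw11d, so the medians there are also given at like signal. Below 30 the 5 P450 genes had a median of -0.15 and all genes -0.24, and above 1000 the 7 P450 genes had 0.07 as had all genes. At 30 to 100 it was -0.39 for P450 genes against -0.06, and at 100 to 1000 it was -0.17 against 0.03. Centring on the median of the gene spots moved all genes in L1210-Fbxw11d to 0.26 and the P450 genes to 0.04, a change of sign with 21 of 44 below 0, while the P450 median stayed below that of all genes by the same amount (-0.22). After quantile normalization that difference was -0.16 and after normexp -0.27, and with the mean of all features of each gene, over 50 P450 genes, it was -0.11. The slide of this array moved with the result, and its part in it cannot be told apart from that of the variant. Of the markers well above background, 4 of 5 macrophage, 2 of 3 hepatocyte and 4 of 8 lymphoid genes were below L1210-control on this array, with a log2 ratio of -1.12 for Csf1r, the receptor of a macrophage growth factor, which passed 2-fold. The macrophage markers summed to 9460, 7642, 6317 and 6729 on the 4 arrays and the hepatocyte markers to 3121, 2990.0, 2985 and 2591. Their part in the result was not tested.

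Among the 44 genes, the log2 ratio between variant lines reached 2-fold for 3 genes between L1210-Fbxw11a and L1210-Fbxw11c, Cyp2ab1, Cyp3a13 and Cyp4f37, all higher in L1210-Fbxw11a. Of all 16247 genes compared this way, 1.39% were higher there and 0.806% lower. Cyp3a13 gave 660.5 in L1210-control and 808, 392 and 581 with Fbxw11a, Fbxw11c and Fbxw11d. Its second feature gave 139, 146, 124 and 147, a range of 1.19-fold. Between L1210-Fbxw11c and L1210-Fbxw11d, 5 genes were higher in the former (Cyp17a1, Cyp2ab1, Cyp2b13, Cyp2e1 and Cyp2g1) and 2 lower (Cyp4a10 and Cyp4f37), where 2.24% of all genes were higher and 0.579% lower. L1210-Fbxw11a exceeded L1210-Fbxw11d for 3 genes (Cyp2ab1, Cyp2b13 and Cyp2g1) and was lower for 1 (Cyp4a14), where 3.18% of all genes were higher and 0.726% lower. Cyp2e1, which oxidises ethanol and small solvents, gave 64.0, 56.3, 109 and 50.6, with L1210-Fbxw11c the highest. Its second feature was well above background in L1210-Fbxw11a (17.1) and L1210-Fbxw11d (10.6) only.

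Over all 4 lines, the highest and the lowest differed by 2-fold or more for 16 of the 58 P450 genes above background on any array, which is 27.6%, where 12.6% of all genes did. With the 44 genes above background on all arrays it was 13 genes, or 29.5%, where 8.40% of all genes did. After normexp the shares were alike over the genes above background on any array, with 3 of 58 P450 genes (5.17%) against 5.11% of all genes, and the median range of the 44 was 0.60 against 0.31. Since P450 signals were lower than those of other genes, the shares are also given at like signal. Below 30 it was 2 of 5 P450 genes against 22.9% of all genes. At mean signals of 30 to 100 it was 6 of 16 P450 genes (37.5%) against 25.0% of all genes, at 100 to 1000 it was 4 of 16 (25.0%) against 7.62%, and above 1000 it was 1 of 7 against 1.15%. Just inside the threshold was Cyp17a1 at 2.01-fold and just outside it Cyp2c65 at 1.99-fold. Without the L1210-Fbxw11d array 5 genes were left, Cyp11a1, Cyp2ab1, Cyp2t4, Cyp3a13 and Cyp4f37, which is 9.26% of 54 genes compared, where 7.55% of all genes were past 2-fold. The L1210-Fbxw11d array held the lowest value of 7 of the 13 genes (53.8%), and of 50.7% of all 1364 genes with such a range.

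**Figure D4:**
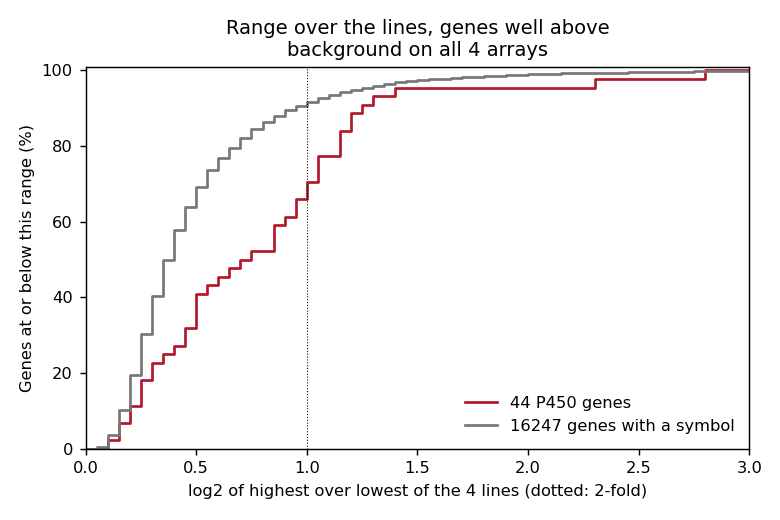
Share of genes (in percent) whose highest and lowest line differ by no more than the log2 value on the x axis, for the 44 P450 genes (red) and for all 16247 genes with a symbol (grey) well above background on all 4 arrays. The median range is 0.70 for P450 genes against 0.35, and the red curve lies below the grey one at 2-fold, where 29.5% of P450 genes and 8.40% of all genes lie at or beyond it, which normexp lowers to 3 of the 44 and 3.27%. P450 genes had lower signals than the rest.

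Genes of 1 cluster did not move as a unit. On chromosome 7, 12 P450 genes of family 2 lie between bases 26587495 and 27943565 of mm9, and 5 of them were well above background on all 4 arrays. In L1210-Fbxw11d, Cyp2a4, Cyp2b13, Cyp2g1 and Cyp2t4 had log2 ratios of -0.87, -0.98, -1.24 and -1.03, and Cyp2s1 at the edge of the cluster 0.07. All 1379 genes of chromosome 7 well above background on all arrays had a median of 0.01 there. In L1210-Fbxw11c the same 5 genes ran from -0.56 to 0.62. The 13 Cyp2c genes lie on chromosome 19 between 39116674 and 44079594. Among the 11 of these above background on all arrays, 7 stayed within 1.5-fold over the 4 lines and 1, Cyp2c66, passed 2-fold. Of all 16247 genes above background on all arrays, 24.1% reached a 1.5-fold range and 8.40% a 2-fold range. Cyp2c38 gave 173, 175, 184 and 181, and its second feature was well above background on no array. Cyp2c29, which was printed on 10 spots, gave 55.1 to 60.1. Its lines differed by at most 1.09-fold.

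The Cyp4a features on chromosome 4 went both ways in L1210-Fbxw11d. Cyp4a10, a fatty acid omega-hydroxylase, gave 156 in L1210-control and 149, 121 and 249.5 with Fbxw11a, Fbxw11c and Fbxw11d, and its neighbour Cyp4a14 was also highest in L1210-Fbxw11d. The second Cyp4a10 feature, the one printed above, gave 62.7, 62.2, 58.3 and 109, with a log2 ratio of 0.79 in L1210-Fbxw11d beside 0.67 for the first. The feature that represents Cyp4a31 gave 212, 212, 209 and 136, lowest in L1210-Fbxw11d, with a log2 ratio of -0.64 there. Another, which lists both Cyp4a31 and Cyp4a10, gave 65.98, 58.8, 59.97 and 90.6, highest in L1210-Fbxw11d at a log2 ratio of 0.46. The Cyp4a31 feature that is 54 of 60 bases identical to the Cyp4a10 one gave 18.6 in L1210-control (not well above background), 42.0, 39.5 and 16.1, so the full-length line was at least 2.26-fold and L1210-Fbxw11c at least 2.12-fold above L1210-control. The 2 features, which differ in 6 bases, had different profiles over the 4 lines, and the Cyp4a10 one lists transcripts of 2 genes.

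Features of 1 gene could disagree. Of 9 genes with several features to compare in a line, 3 had features that differed by 2-fold or more in their ratio, Cyp2a4, Cyp2j13 and Cyp4a31. The Cyp2j13 feature printed above, which crosses an exon junction and is shared with Cyp2j12, gave 107 ± 11.3 in L1210-control and 2.84, 3.04 and 2.07 in the variant lines, none of them well above background. L1210-control was at least 7.45-fold, 7.20-fold and 10.3-fold higher than the variant lines in the order a, c and d. The feature that represents Cyp2j13, which starts at base 4309 of the transcript, gave 60.3, 44.3, 43.1 and 47.2, and the third was well above background on no array. Each value is from 1 spot. The Cyp2a4 feature printed above gave 67.1, 48.6, 62.9 and 36.8, and the one that starts at base 1487 gave 47.6, 138, 29.1 and 16.3. Both list Cyp2a4 and Cyp2a5.

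**Figure D5:**
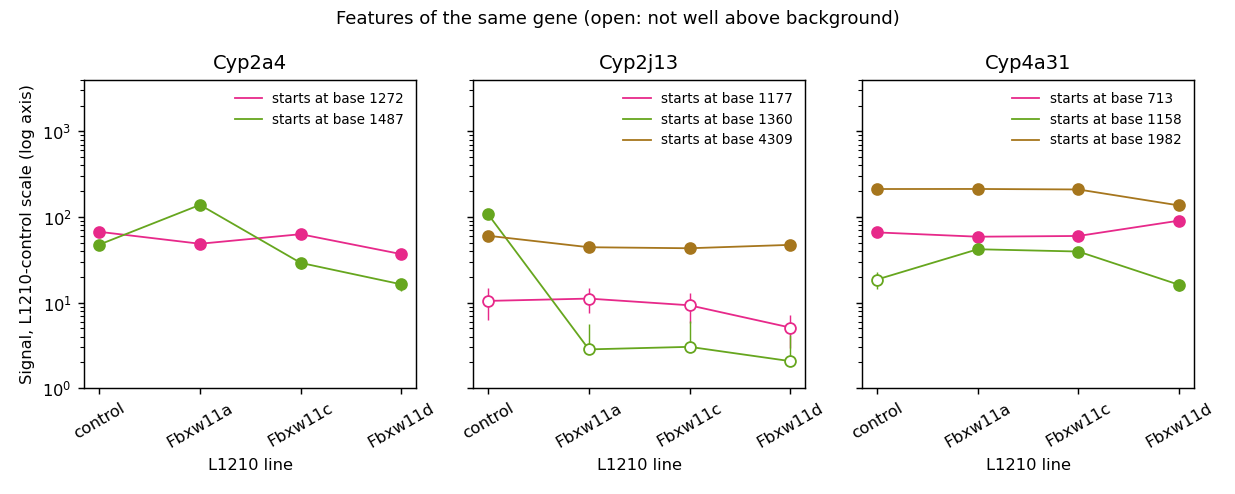
Signal on a log axis of each feature of Cyp2a4, Cyp2j13 and Cyp4a31 in the 4 lines, labelled by the base of the transcript at which it starts, with bars for the scanner software's error (upward only where it exceeds the signal) and open points for values not well above background. The Cyp2j13 feature that starts at base 1360 lies at 107 in L1210-control and at 2.07 to 3.04 in the 3 variant lines, where the feature that starts at base 4309 stays between 43.1 and 60.3.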

How the data were processed

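Per array the authors deposited a scanner file with the processed intensity of every spot, corrected for background. They also deposited 1 table with these intensities, log2 values normalized across arrays, gene symbols and mm9 coordinates. The labels name Agilent Feature Extraction 9.1 and the file headers 10.7.1.1. The study states a fold change of 2 as threshold and does not name the normalization. Here, log2 of the processed signal minus the 75th percentile of each array's 59305 gene spots was used, which was 620, 627, 672 and 954 in the order control, a, c and d. Outlier spots by the software's flags, 105 to 167 on an array, were not used, spots of a feature were averaged, and no gene spot was saturated. Where 1 array was not well above background, "at least" marks a bound, computed with the dim signal or with the lowest signal of any feature whose spots all passed, whichever was higher. Gene IDs of all 115 features matched RefSeq (GRCm38.p6, names only).

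With 1 array per line no test across samples was possible, and the number of arrays limits the precision. The members, role groups and partner and marker lists were chosen with earlier results of these data known. The genes planned to be named were those past 2-fold in any line, those with the 10 highest mean signals, 4 role groups, genes whose features go opposite ways, and 3 partner lists. Those named for a cluster, a variant pair or their features were chosen after seeing their values. The values of 1 listed marker gene are not reported here. The scripts were tested on simulated data. Tried in turn were normexp (offset 50, limma 3.58.1), quantile normalization, median centring, the authors' log2 values, other filters, flagged spots kept, the mean of all features and a 1.5-fold threshold, with 2 added after seeing the data, leaving out the L1210-Fbxw11d array and features that list 1 RefSeq gene. Python 3.11.15 with pandas 2.3.3 and numpy 2.4.6, and R 4.3.3, ran the analysis.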

Additional observations from a re-analysis of the deposited data

Results flagged for a closer look

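The Cyp2a4 feature on chromosome 7 that starts at base 27099880 (mm9) moved in opposite directions. Its log2 ratio to L1210-control was 1.54 with Fbxw11a, -0.71 with Fbxw11c and -1.54 with Fbxw11d. The difference between the lines was not tested, as there is 1 array per line. The gene's other feature, which crosses an exon junction, gave -0.46, -0.09 and -0.87, and both match Cyp2a4 and Cyp2a5.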

How the results depend on the processing

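Of 557 log2 ratios of named genes under the alternatives, 523 stayed within the scanner error of their first value, 34 moved beyond it and none of those past 2-fold changed sign. The 44 genes well above background on all arrays stayed 44 in both settings tried. This count rests on the scanner software's flags, which a change of scaling leaves as they are, so it is no check of the scaling. Normexp gave 0 genes lower in L1210-Fbxw11a, and 1 higher and 1 lower in L1210-Fbxw11d. Quantile normalization, median centring and the authors' values each gave 3 lower in L1210-Fbxw11d. With these scalings 4 of 7 calls in L1210-Fbxw11d were higher (57.1%), against 37.5%. Without a filter on dim features 4 genes were higher and 3 lower in L1210-Fbxw11a, 2 higher in L1210-Fbxw11c, and 7 higher and 15 lower in L1210-Fbxw11d. With the mean of all features 2, 1 and 7 were lower with Fbxw11a, Fbxw11c and Fbxw11d. At 1.5-fold 4 were higher in L1210-Fbxw11a, 6 higher and 3 lower in L1210-Fbxw11c, and 5 higher and 10 lower in L1210-Fbxw11d. Genes with a 2-fold range, 16 at first, were 5 without the L1210-Fbxw11d array, 3 after normexp, 35 without a filter (38.9%, all genes 23.2%) and 34 at 1.5-fold (58.6%, all genes 29.7%). With features that list 1 RefSeq gene, Cyp2c66 was lost from the 5 lower in L1210-Fbxw11d and from the genes with a 2-fold range, which became 15, and no other of these counts changed. A lower threshold or no filter counts more genes by construction, and for the other changes the cause was not tested. Signal over background limits what can be read of the 32 genes above it on no array. No paired analysis was possible because each line has 1 array.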
